A study of Mus musculus with 32 samples.

Results

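The first 45 Mb of mouse chromosome 5 were examined as a DNA target of chromatin-associated RNA. RADICL-seq ligates RNA to the DNA lying next to it in fixed nuclei, so that each interaction joins an RNA tag, assigned to a gene, to a DNA tag, assigned to a 25-kb bin. The interval was taken as every interaction whose DNA tag lay on chromosome 5 at a position up to 45000000 in GRCm38/mm10. It held 1800 bins, 1.65% of the 109032 bins of the genome and 29.6% of the length of chromosome 5, and the other 4274 bins of the chromosome served as the rest. Of the 1800 bins, 136 consist of unknown bases. The annotation places 848 genes in the interval, 316 of them protein-coding, and 465 different RNAs contacted it over all libraries.

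The 15 libraries came from 2 mouse cell lines. R08 is a male embryonic stem cell line (mESC), and Oli-neu is a neural line derived from oligodendrocyte progenitor cells (mOPC). The groups were mESC 1FA (1% formaldehyde, 3 libraries), mESC 2FA (2% formaldehyde, 3), mESC ActD (actinomycin D, a blocker of transcription, at 5 µg/ml for 4 hours before fixation, 2), mESC NPM (2), mOPC 1FA (3) and mOPC NPM (2). In the NPM (non-protein-mediated) libraries, protein was digested and crosslinks were reversed before the RNA was ligated. Their RNA and DNA were thus ligated in solution, and not within nuclei as in the other groups. Each cell type was represented by 1 line, and replicates were batches of cells of different passage number. Between 251802 and 2832717 significant interactions were listed per library, the fewest in mESC ActD and mESC NPM. Levels are given below in CPM, interactions scaled to 1000000 listed interactions of the same library, and a pair of an RNA and a bin that is not listed may still have been captured. The interval was chosen by the share of chromosome 5 interactions with their DNA tag there, which was larger in mOPC than in mESC libraries, so the contrast between the lines is a description below, and the limma calls given for it are counts by a fixed threshold and no test of the interval. In these bulk data more DNA of the interval per nucleus and more contacts per copy of it cannot be told apart.

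Most marker genes fitted the labelled lines. Of 12 stem cell markers 10 or 11 were listed in the mESC groups, at a summed 1772 to 2843 CPM. In mOPC 2 to 4 of them were listed, at 1.81 to 47.0 CPM, and Pou5f1 and Nanog were at 0. Of 12 oligodendrocyte lineage markers 10 were listed in mOPC 1FA and all 12 in mOPC NPM, at 8148 to 10610 CPM. In the mESC groups 2 to 7 of these were listed, at 55.6 to 212 CPM, and Olig1 and Olig2 were at 0. Nkx2-2 and Sox8 were at 0 in mOPC 1FA, while Nkx2-2 was listed in mESC 2FA and mESC NPM. Lhfpl3, one of these markers, lies in the interval and supplied most of the mOPC sum.

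RNA contacts DNA in 2 broad ways. Nascent RNA stays near its own gene and, through the folding of the chromosome, meets other loci of that chromosome in cis. A smaller group of abundant nuclear RNAs reaches other chromosomes in trans. Malat1, a long noncoding RNA (lncRNA) of nuclear speckles, and Neat1, the scaffold of paraspeckles, are the best known of these, and both are associated with active genes. Contacts within 1 kb are mostly those between a transcript and the gene that encodes it.

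The 4 stretches of the interval below are shown first, because they are among the places with the most tags of RNAs from other chromosomes. They are 300-base windows without an annotated exon, those of rank 1 and 3 by number of trans DNA tags in mOPC 1FA and in mOPC NPM. The window chr5:23166001-23166300 (GRCm38/mm10, plus strand) lies in an intron of Lhfpl3 and held 43 trans tags of 11 RNAs in the mOPC 1FA libraries, 23 of them Malat1, and 1 in mOPC NPM. In mESC 1FA it held 3 tags of any kind. The window chr5:22839901-22840200, also in an Lhfpl3 intron, held 31 trans tags of 9 RNAs in mOPC 1FA, 5 in mOPC NPM and no tag in mESC 1FA. The windows chr5:32184601-32184900 and chr5:32179201-32179500 lie in no annotated protein-coding gene and held 17 and 16 trans tags in mOPC NPM, each of 11 RNAs, and 2 and 5 in mOPC 1FA. Each window thus stood high in the group that ranked it and lower in the other. The windows of rank 2 are not printed; that of mOPC 1FA adjoins the first window and held 33 tags of 12 RNAs, and that of mOPC NPM held 16 of 6 RNAs, as many tags as rank 3. Capitals mark CG dinucleotides, which number 5, 0, 2 and 0. The label intergenic means only that a window lies in no annotated protein-coding gene.
Lhfpl3 intron, window A: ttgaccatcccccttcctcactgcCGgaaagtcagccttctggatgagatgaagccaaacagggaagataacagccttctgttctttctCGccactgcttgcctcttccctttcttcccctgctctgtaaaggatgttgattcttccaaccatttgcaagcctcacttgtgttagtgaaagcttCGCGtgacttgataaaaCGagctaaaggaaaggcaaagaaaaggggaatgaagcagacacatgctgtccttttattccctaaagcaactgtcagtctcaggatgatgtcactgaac
Lhfpl3 intron, window B: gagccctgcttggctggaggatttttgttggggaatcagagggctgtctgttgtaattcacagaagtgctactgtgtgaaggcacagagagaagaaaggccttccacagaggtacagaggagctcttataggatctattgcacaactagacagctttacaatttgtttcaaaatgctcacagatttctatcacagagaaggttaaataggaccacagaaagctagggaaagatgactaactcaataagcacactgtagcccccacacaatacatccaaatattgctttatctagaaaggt
intergenic, window C: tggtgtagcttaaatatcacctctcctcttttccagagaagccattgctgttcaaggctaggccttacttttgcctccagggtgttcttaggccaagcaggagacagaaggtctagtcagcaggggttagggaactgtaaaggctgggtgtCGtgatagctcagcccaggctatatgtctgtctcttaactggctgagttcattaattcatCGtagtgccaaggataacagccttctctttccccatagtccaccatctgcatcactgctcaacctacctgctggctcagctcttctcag
intergenic, window D: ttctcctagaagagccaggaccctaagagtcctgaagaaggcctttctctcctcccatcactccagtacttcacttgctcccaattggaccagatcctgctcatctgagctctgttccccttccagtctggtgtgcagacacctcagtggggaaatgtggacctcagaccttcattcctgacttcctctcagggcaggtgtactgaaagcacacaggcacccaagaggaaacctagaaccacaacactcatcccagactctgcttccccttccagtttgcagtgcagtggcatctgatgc
Their GC contents were 46.7%, 42.7%, 49.3% and 53.0%, and between 6.67% and 8.67% of their bases were soft-masked repeats.

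Across the whole interval, DNA contacts were several times denser in mOPC than in mESC. In mESC 1FA, 19.4%, 18.9% and 19.9% of the chromosome 5 interactions of a library had their DNA tag in the interval. In mOPC 1FA the shares were 63.1%, 62.1% and 62.1%, and in mOPC NPM 62.9% and 66.0%. They were 19.3%, 19.5% and 20.9% in mESC 2FA, 17.4% and 17.2% in mESC ActD, and 23.6% and 23.3% in mESC NPM. Thus all mESC libraries lay below the 29.6% that the length of the interval would give, and all mOPC libraries above it, by the choice of the interval. Of all listed interactions in the genome, the interval took 1.16 to 1.18% in mESC 1FA and 6.80 to 7.05% in mOPC 1FA. It took 6.99% and 8.04% in mOPC NPM. The density was 1546 CPM per Mb in mOPC 1FA and 261 in mESC 1FA, against 391 and 456 in the rest of the chromosome.

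**Figure D1:**
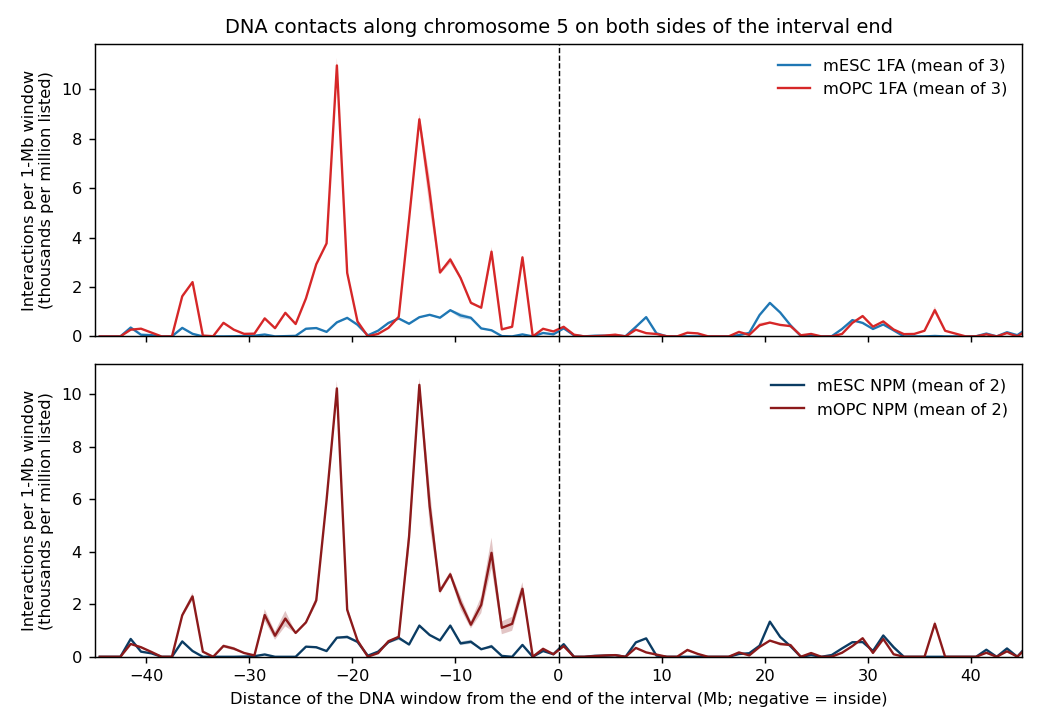
Interactions (1000 CPM) in each 1-Mb window of chromosome 5 by the position of the DNA tag, plotted against the distance of the window from the end of the interval, up to 45 Mb beyond it; lines are means over libraries and shading is the range. The mOPC lines peak at 10963 (1FA) and 10348 (NPM) CPM inside the interval and come near the mESC lines just past its end. The window that starts at 81 Mb held 1061 (1FA) and 1257 (NPM) CPM in mOPC, against 18.2 in mESC 1FA and 0 in mESC NPM.

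The difference was uneven along the interval. Of the 42 windows of 1 Mb that hold sequence, all mOPC 1FA libraries lay above all mESC 1FA libraries in 35 and below them in 4. For NPM the numbers were 33 and 3. In the 107 windows of the rest, mOPC 1FA lay above in 35 and below in 53, and mOPC NPM above in 29 and below in 44. Bins showed the same contrast in the limma fit, where 767 of the 1007 bins tested in the interval were higher in mOPC 1FA and 109 were lower. Over the genome 34.8% of bins were higher and 39.9% lower. These calls describe the contrast by which the interval was chosen. The 4 bins before 45 Mb were listed at 0 in all groups, and the 4 bins behind it held means of 6.67 to 10.0 interactions per mOPC 1FA library and 0 to 3.67 per mESC 1FA library. Between 40 and 45 Mb the density was 821 CPM per Mb in mOPC 1FA and 60.8 in mESC 1FA, and between 45 and 50 Mb it was 100 and 87.7. The high density ended with the last run, before the end of the interval, since from there to 45 Mb it was 171 and 82.5. Across 45 Mb itself it was higher beyond than before, with 201 and 84.2 from 44 to 45 Mb and 389 and 329 from 45 to 46 Mb. Of the genes nearest the end, Tapt1 inside held 373 interactions with the chromosome in mESC 1FA and 444 in mOPC 1FA, pooled, and Qdpr outside held 123 and 53. Prom1, which encodes a membrane glycoprotein of progenitor cells, held 86 in mESC 1FA and none in mOPC 1FA, so that not every gene of the interval was higher in mOPC.

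Contacts from other chromosomes lay in runs of bins, which are described here with no test. Runs were defined, after the values were seen, as stretches of at least 10 bins with a trans interaction in mOPC NPM and no gap over 4 bins. There were 11 such runs in the interval, together 619 bins or 15.5 Mb, and 1 in the rest of the chromosome, from 139.0 to 139.4 Mb. The same definition gave 14 runs in mOPC 1FA in the interval and 22 in the rest. Of the 11 runs, 5 started and 4 ended at the same bin in mOPC 1FA. The longest run, chr5:37500001-41775000, was also the last of the interval and held 17 coding gene starts, and the shortest, from 10.2 to 10.45 Mb, held 1. The run from 22.7 to 24.5 Mb around Lhfpl3, 5031425E22Rik, Kmt2e and Srpk2 was the densest, with 9049 CPM per Mb in mOPC 1FA, 9829 in mOPC NPM and 519 in mESC 1FA. The run from 30.1 to 32.85 Mb, with Babam2 and Ppp1cb, held 6975, 7442 and 705.

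**Figure D2:**
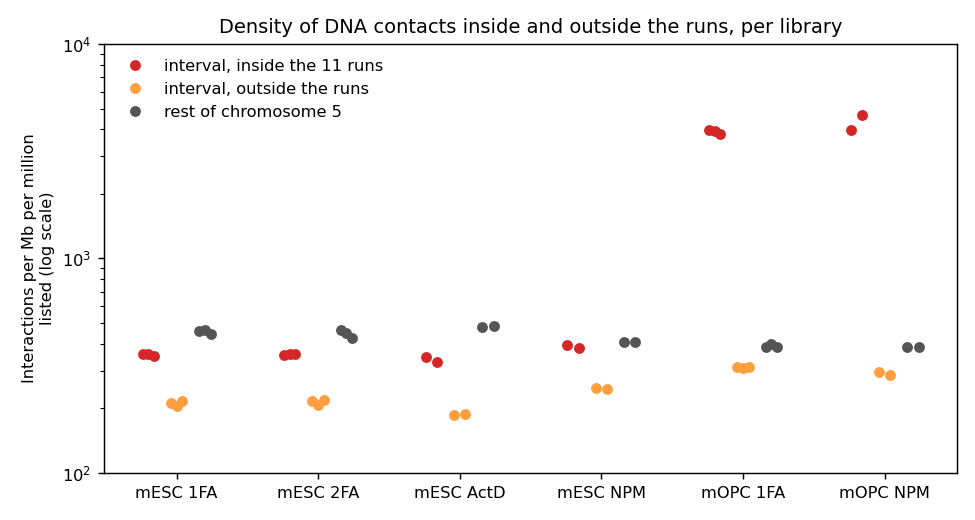
Density of interactions by position of the DNA tag, in CPM per Mb (log scale), inside the 11 runs, in the interval outside them and in the rest of chromosome 5; each point is 1 library. The 5 mOPC libraries lie between 3800 and 4652 inside the runs and between 285 and 311 outside them.

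Inside the runs, the density was 3965, 3939 and 3800 CPM per Mb in the mOPC 1FA libraries and 3952 and 4652 in mOPC NPM. In mESC 1FA it was 360, 357 and 349. Outside the runs, the interval held 310, 307 and 311 in mOPC 1FA and 212, 205 and 216 in mESC 1FA. The rest of the chromosome held 387, 399 and 388 in mOPC 1FA with all its bins, and is not compared with the interval outside the runs, whose densest mOPC bins the definition of the runs takes away. The lengths count bins of unknown bases too. The runs took 86.9% of the interactions of the interval in mOPC 1FA, 88.6% in mOPC NPM and 46.8% in mESC 1FA, on 34.4% of its length. The median GC content was 41.6% in bins of the runs, 40.5% outside them and 42.9% in the rest, and coding gene starts numbered 10.0, 6.16 and 8.83 per Mb.

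The promoters of 2 genes show the contrast at the DNA. They were taken from RefSeq (GRCm38.p6), as the 250 bases before a gene's start, and this pair was chosen after the values were seen, among the 4 promoters of the leading RNAs that no annotated exon overlaps. The other two, of Kmt2c and of another Srpk2 start, held 5 and 3 DNA tags in mESC 1FA and 2 and 45 in mOPC 1FA. The Srpk2 start at chr5:23616572-23616821 (minus strand), one of 3 listed for this kinase of splicing factors, lies in a run and held 114 DNA tags in mOPC 1FA and 4 in mESC 1FA. The Fam193a promoter at chr5:34369683-34369932 (plus strand) lies just outside a run and held 5 and 6. Capitals mark GGGCGG on either strand (the GC box, CCGCCC on the other strand), found 8 times in the Fam193a window and not in the Srpk2 window. This motif is in 32.7% of 32851 RefSeq promoters of the same length.
Srpk2: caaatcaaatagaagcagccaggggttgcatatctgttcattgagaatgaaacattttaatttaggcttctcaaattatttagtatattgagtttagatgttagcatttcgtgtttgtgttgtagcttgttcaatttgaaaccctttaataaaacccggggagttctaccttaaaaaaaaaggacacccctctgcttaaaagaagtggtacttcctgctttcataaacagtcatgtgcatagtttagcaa
Fam193a: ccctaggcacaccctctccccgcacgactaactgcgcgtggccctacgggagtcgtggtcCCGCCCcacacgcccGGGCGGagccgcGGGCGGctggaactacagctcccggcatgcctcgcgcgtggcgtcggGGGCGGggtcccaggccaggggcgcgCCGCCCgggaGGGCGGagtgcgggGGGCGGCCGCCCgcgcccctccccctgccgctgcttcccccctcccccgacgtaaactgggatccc
TATAAA, which 12.4% of promoters hold on either strand, was in neither.

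Cis RNAs made up most contacts. In mESC 1FA, RNAs of the interval itself gave 95.4% ± 0.529 (SD, n = 3) of its interactions, RNAs of the rest of the chromosome 0.353% ± 0.0324 and trans RNAs 4.24% ± 0.498. In mOPC 1FA, RNAs of the interval gave 82.1% on average and trans RNAs 17.6%. Protein-coding RNAs supplied 93.6% of the contacts in mESC 1FA and 71.2% in mOPC 1FA, and lncRNAs 3.23% and 27.3%. RNA tags lay in introns in 79.3% and 72.3%. Per library 238 to 240 RNAs contacted the interval in mESC 1FA and 345 to 351 in mOPC 1FA. The 10 leading RNAs supplied 32.1 to 32.4% of interactions in mESC 1FA and 53.8 to 56.7% in mOPC 1FA.

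Among the coding RNAs, Babam2, a subunit of the BRCA1-A and BRISC deubiquitinating complexes, led in mESC 1FA and came behind Malat1 in mOPC 1FA. It contacted the interval at 571, 571 and 608 CPM in mESC 1FA and at 6042, 6576 and 6160 in mOPC 1FA. The mOPC NPM libraries held 2486 and 2734. The lncRNA 5031425E22Rik reached 118, 78.6 and 85.8 in mESC 1FA and 4897, 5077 and 6226 in mOPC 1FA, with 3073 and 2684 under NPM in mOPC. Lhfpl3, a tetraspan membrane protein gene and a marker of oligodendrocyte progenitors, was listed at 0 in all 10 mESC libraries. It reached 4949, 5231 and 5332 in mOPC 1FA against 6895 and 7097 in mOPC NPM. All 3 genes lie in runs.

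Ppp1cb, a catalytic subunit of protein phosphatase 1, reached 143 to 159 CPM in mESC 1FA and 1761 to 2649 in mOPC 1FA. Wdr1, a cofactor of actin disassembly, reached 57.0 to 78.2 and 1355 to 2660. In both, mOPC 1FA replicate 3 was the lowest of its group, and it still lay above all mESC libraries. Rab28, a small GTPase, reached 21.7 to 24.98 and 1987 to 2267. Kmt2e, a chromatin regulator of the MLL family, reached 84.8 to 111 and 1615 to 1732, Srpk2 339 to 386 and 2055 to 2218, and Gsap, the γ-secretase activating protein, 2.25 to 4.51 and 1364 to 1422. The groups did not overlap for any of these RNAs, which were picked as leading in mOPC 1FA. By all their contacts in the genome, the groups were apart for 187 of 207 transcripts of the interval tested. The same held for 8256 of the 10256 transcripts tested in the genome, so that lack of overlap is no trait of these RNAs. The other leading RNAs of mESC 1FA differed less between the lines or were lower in mOPC 1FA. Rbm33, which takes part in RNA export, reached 417 to 450 in mESC 1FA and 203 to 250 in mOPC 1FA. Fam193a reached 380 to 448 and 240.5 to 248.8, Kmt2c, a histone H3 methyltransferase, 370 to 382 and 284 to 312, and Lmbr1, whose intron holds a limb enhancer of Shh, 237 to 299 and 25.5 to 30.3. Dnajb6, a chaperone, reached 302 to 330 and 406 to 465, and Ube3c, a ubiquitin ligase, 254 to 285 and 461 to 516. For Sorcs2, a sorting receptor, the groups were 319 to 419 and 427 to 497.

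Gene lists are described by the same contrast that chose the interval, so that nothing is read from their counts. Of 207 transcripts of the interval tested, limma called 144 (69.6%) higher in mOPC 1FA and 42 (20.3%) lower, with a median log2 difference of 2.03. The median was 3.18 for the 120 that start in a run and 0.05 for the 87 that start outside. The runs were themselves defined by mOPC contacts. Among neural genes 18 of 20 lie in the interval and 16 were tested between the lines, and mOPC 1FA was higher for 11 of them and lower for 3, with a median log2 difference of 2.01 against −0.30 over all transcripts tested. The genome-wide shares were 33.0% higher and 45.1% lower. The share of neural genes called and their median thus lay close to those of the whole interval. Magi2, a synaptic scaffold, was captured at 18.4, 31.9 and 21.5 CPM in mESC 1FA and at 1372, 1384 and 1509 in mOPC 1FA. Cacna2d1, a calcium channel subunit, stood at 88.1 to 131 and 290 to 317. Dpp6, a potassium channel auxiliary subunit, stood at 83.3 to 98.3 in mESC 1FA and was listed at 0 in mOPC 1FA. Of the 4 semaphorins, secreted guidance cues, Sema3d was listed at 0 in mESC 1FA and at 642 to 709 in mOPC 1FA, while Sema3e had a mean of 19.4 in mESC 1FA and was listed at 0 in mOPC 1FA. Of 25 cell cycle, chromatin and RNA genes tested 15 were higher and 7 lower, and among the lower Cdk6 fell from a mean of 116 in mESC 1FA to 13.5 in mOPC 1FA. Of 6 transporter and metabolism genes tested 5 were higher, with Slc5a6, a vitamin transporter, at 1.23 to 1.77 and 568 to 767. Of 7 disease genes tested 3 were higher and 3 lower. Of the 7 growth factor genes in the interval 1 was tested, Wdr1, which is no growth factor itself. Of 5 tested genes near 45 Mb 2 were higher and 3 lower.

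Contacts between distant parts of the interval were nearly confined to mOPC among these groups. Of cis contacts in the interval, 37.5%, 40.5% and 38.3% spanned over 1 Mb in mOPC 1FA, against 13.02%, 14.9% and 14.9% in the rest. In mESC 1FA the shares were 4.68%, 4.30% and 4.65% in the interval and 8.31%, 7.69% and 7.89% in the rest. Over 5 Mb within the interval, 33888, 35004 and 31056 contacts were listed in the mOPC 1FA libraries, and 1, 4 and 2 in mESC 1FA. In mOPC NPM 1889 and 1957 were listed. Of those in mOPC 1FA, 90.6 to 91.9% ran from an RNA made in a run to DNA in a run, and in mOPC NPM 99.0% and 98.9%. By DNA position alone, the runs took 86.9% and 88.6% of all interactions of the interval in these groups. They were defined by trans contacts of mOPC NPM, so that nothing is read from these shares about far contacts. The RNAs with the most far contacts in mOPC 1FA were 5031425E22Rik with 14071, Babam2 with 12207 and Lhfpl3 with 9822, pooled. In mOPC NPM Lhfpl3 supplied 3083 and 5031425E22Rik 441. In mESC 1FA Rheb, a small GTPase, supplied all 7.

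**Figure D3:**
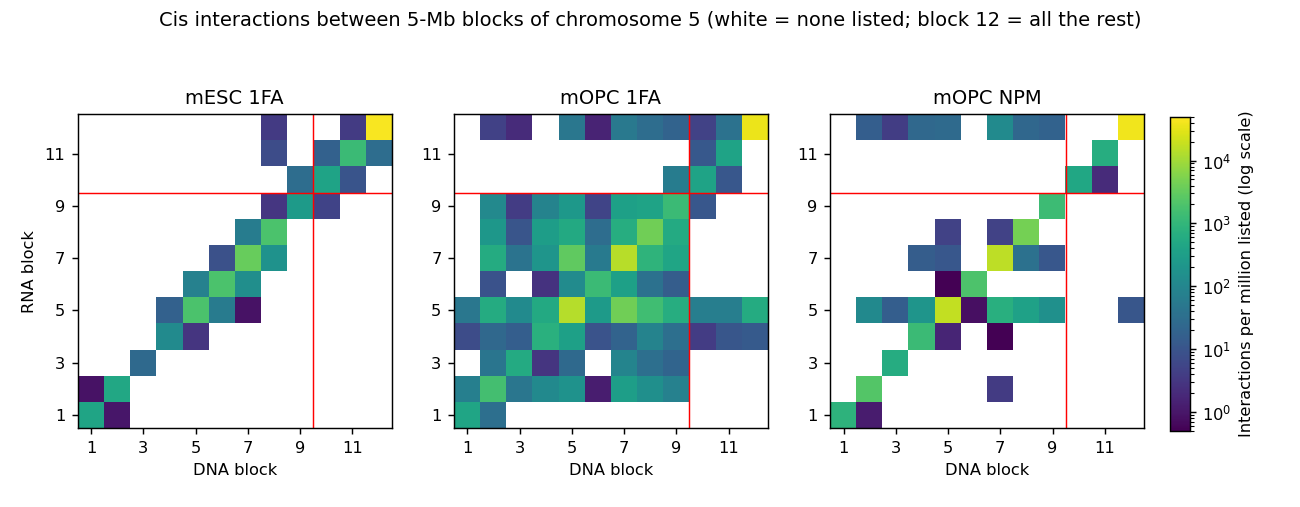
Cis interactions in CPM (log colour scale) between RNA and DNA in blocks of 5 Mb of chromosome 5, pooled per group; blocks 1 to 9 are the interval, red lines mark its end, block 12 holds all that follows block 11, and white means none listed. In mOPC 1FA 42 of 56 pairs of blocks that are not neighbours in the interval are filled, in mOPC NPM 11 and in mESC 1FA 1.

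Divided into blocks of 5 Mb, 90003 of 360506 cis interactions within the interval joined blocks that are not neighbours in mOPC 1FA. In mESC 1FA 7 of 88915 did so, and in mOPC NPM 3465 of 118871 (2.91%). The end of the interval was seldom crossed. In mOPC 1FA 1.33% of the cis contacts of RNAs made in the interval fell on the rest of the chromosome, and 0.616% of those of RNAs made in the rest fell in the interval. In mESC 1FA the shares were 0.0450% and 0.0902%.

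On the interval, trans RNAs were few in mESC and many in mOPC. The rest of the chromosome held 13 in mESC 1FA, 9 in mESC 2FA, 5 in mESC ActD and 15 in mESC NPM, against 8 in each mOPC group. In mESC 1FA 2 RNAs from other chromosomes were listed on the interval, Gm22973, a noncoding RNA of chromosome 12, and Malat1. Gm22973 reached 261, 413 and 368 CPM there and was listed at 0 in mOPC. In mESC ActD 5 were listed, with the small nucleolar RNAs Snord118 (222 and 250 CPM) and Snord13 (2.39 and 27.8) and the RNA of RNase MRP, Rmrp (14.3 and 11.9), beside these. In mESC NPM none was. In mOPC 1FA 80 trans RNAs contacted 585 bins, and in mOPC NPM 82 contacted 591. Of these RNAs 44 were shared, 55.0% of the first list and 53.7% of the second. Of the bins 478 were shared, 81.7% and 80.9%. The numbers listed depend on depth, since a pair was kept only where it stood out from its own group. The smallest listed pair held 35 interactions for Malat1 in mOPC 1FA and 7 for Rmrp, over pooled replicates.

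Of all listed trans interactions in the genome, the share landing in the interval was 0.842%, 0.828% and 0.864% in mESC 1FA. In mOPC 1FA the libraries stood at 9.77%, 9.87% and 9.95%. It was 52.4% and 52.3% in mOPC NPM. Without Malat1 it was 0.791 to 0.877%, 27.6 to 29.8%, and 55.4% and 56.5%. The interval holds 1.65% of the bins of the genome, so that mESC lay below and mOPC above that share in every library. Trans interactions captured in pairs that were not listed are outside all these shares. Of the trans contacts on the interval other than those of Malat1, 99.3% lay in its runs in mOPC 1FA. The share was also 99.3% in mOPC NPM, whose trans contacts defined the runs.

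**Figure D4:**
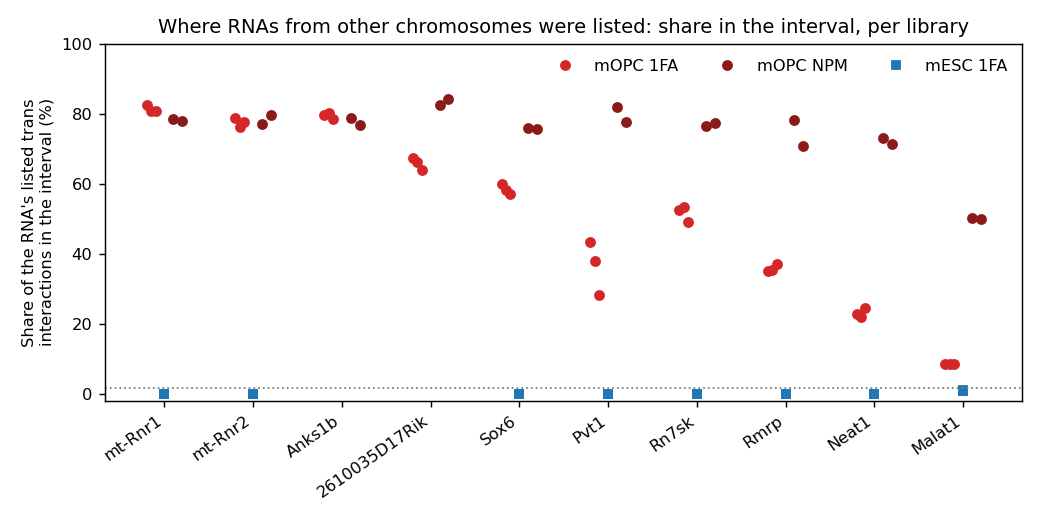
Share of an RNA's listed trans interactions that fell in the interval, in percent, for the 10 RNAs from other chromosomes with the most contacts there in mOPC NPM. They were chosen by contacts with the interval, so that high shares are in part a matter of this choice. Each point is 1 library, and the dotted line is the interval's 1.65% of genome bins. In mOPC NPM 9 of the 10 RNAs lie between 70.8% and 84.2%, and Malat1 lies at 49.9% and 50.1%.

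Malat1 supplied most trans contacts on the interval in mOPC, while in mESC 1FA Gm22973 supplied 2747 and Malat1 1184, pooled. Malat1 contacted the interval at 204, 145 and 102 CPM in mESC 1FA and at 10795, 10098 and 8616 in mOPC 1FA. Under NPM in mOPC it stood at 11295 and 19878, where the libraries differed by more than those of 1FA. Of its trans contacts, 8.33 to 8.59% fell in the interval in mOPC 1FA against 49.9% and 50.1% in mOPC NPM. Neat1 reached 814, 896 and 946 CPM in mOPC 1FA against 3950 and 3518 in mOPC NPM. These were 22.0 to 24.4% and 71.3 to 73.0% of its listed trans contacts. It was listed at 0 on the interval in all mESC groups.

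Mitochondrial RNAs were among those most concentrated there. The mitochondrial ribosomal RNA mt-Rnr1 had 80.8 to 82.6% of its listed trans contacts in the interval in mOPC 1FA and 77.9 to 78.5% in mOPC NPM. For mt-Rnr2 the shares were 76.1 to 78.7% and 77.1 to 79.6%. In mESC 1FA mt-Rnr1 had 98 trans contacts listed, pooled, and mt-Rnr2 101, none of them in the interval. Both varied between the mOPC NPM libraries, at 709 and 2921 CPM for mt-Rnr1 and 734 and 2143 for mt-Rnr2. Rn7sk, the RNA that holds the elongation factor P-TEFb inactive, had 49.0 to 53.3% in mOPC 1FA and 76.5 to 77.3% in mOPC NPM. Rmrp had 35.1 to 37.2% and 70.8 to 78.2%. Coding RNAs did not share one order. Anks1b, a postsynaptic protein gene of chromosome 10, stood at 78.5 to 80.4% and 76.7 to 78.7%. Sox6, a transcription factor of the oligodendrocyte lineage, stood at 57.2 to 59.9% and 75.7 to 75.9%, and the lncRNA Pvt1 at 28.1 to 43.4% and 77.7 to 82.1%. Not every share was high in mOPC 1FA. Snord118 had 21.7 to 29.5% of its listed trans contacts in the interval. Snord13 had 113 trans contacts listed, pooled, and none of them there. In all 63 coding RNAs supplied 2484 trans contacts in mOPC 1FA and 7 lncRNAs 68637.

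The bins with the most contacts in mOPC 1FA lay at 5031425E22Rik. The bin chr5:23400001-23425000 held 59 RNAs, with a mean of 1760.7 interactions per library, 60.2% of them 5031425E22Rik, and the bins on either side held 1704 and 1548. In mESC 1FA the 3 bins held 116, 127 and 50.3. The bins at Ppp1cb (chr5:32450001-32475000) and Wdr1 (chr5:38525001-38550000) followed with 1161 and 1120. Up to 71 RNAs met in one bin, at 5031425E22Rik and Kmt2e, at Ppp1cb and in Lhfpl3 (chr5:23150001-23175000), against at most 17 in mESC 1FA, at Snx17 and Eif2b4. The bins with the most contacts in mESC 1FA, at Mpv17 and Gtf3c2, Dnajb6, Nop14 and Add1, Fam193a, and Rbm33, held means of 136 to 148. In mOPC 1FA these 5 held 966, 166, 83.3, 136 and 67.0.

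NPM was set against 1FA within each line, since this contrast did not choose the interval. The question was whether contacts of the interval change under NPM differently from those of the rest of the chromosome. Loss of protein and ligation outside nuclei go together in NPM, so that their effects cannot be told apart. In mOPC, trans contacts were 18.5%, 17.8% and 16.5% of the interactions of the interval under 1FA and 29.4% and 40.8% under NPM. In the rest they were 13.5%, 12.5% and 11.3% under 1FA and 0.655% and 1.17% under NPM. The difference between interval and rest thus grew by 29.03 percentage points, and the libraries did not overlap. It grew by 14.9 points without Malat1, 18.4 without own-gene contacts and 56.9 with each pair of an RNA and a bin counted once. Contacts within 1 kb were 5.16%, 2.61% and 3.73% under 1FA and 62.2% and 52.1% under NPM in the interval, and 7.01%, 3.84% and 5.33% against 90.4% and 90.5% in the rest, so that the difference moved by −31.7 points, or by −17.8, −20.9 and −64.1 under the same alternatives. The share of cis contacts beyond 1 Mb was 3.92% and 4.35% in the interval under NPM and at most 0.0308% in the rest, and the difference fell from 24.5 to 4.11 points, a move of −20.4. This value turned to 47.5 points without own-gene contacts and was −12.2 with each pair counted once. Each of the 3 had an exact permutation p of 0.1 (two-sided), the lowest value this number of libraries permits.

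**Figure D5:**
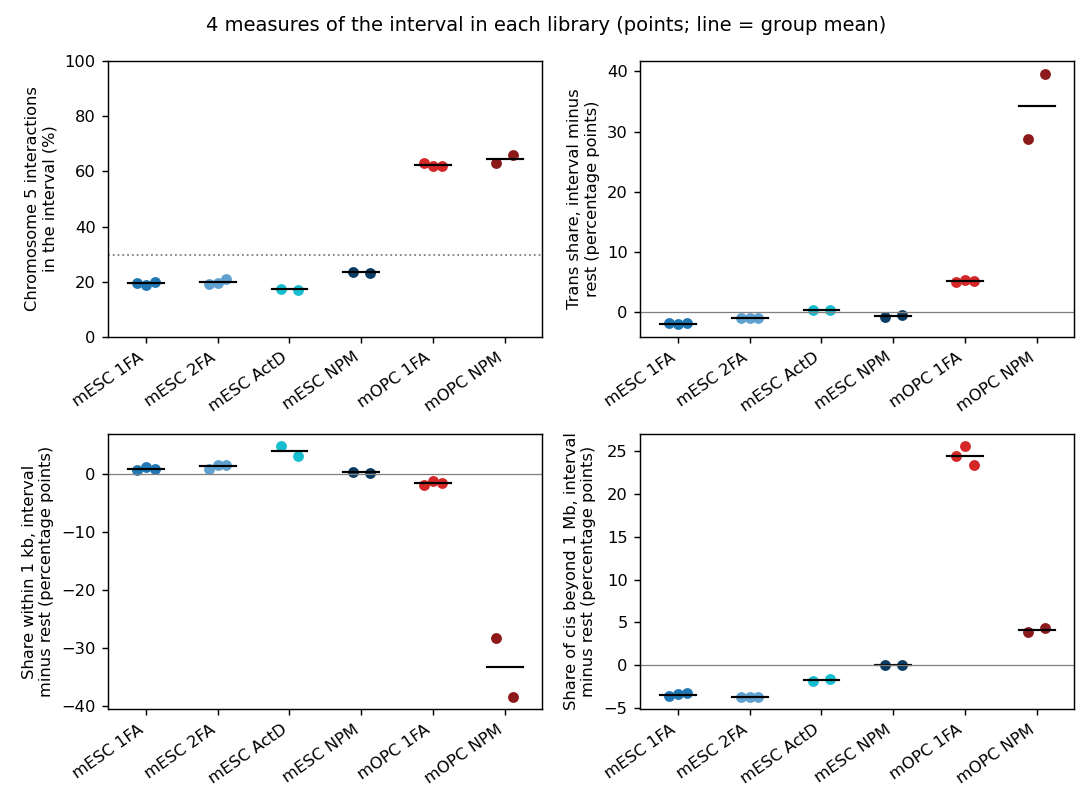
The 4 measures of the interval in each of the 15 libraries (points) with group means (lines): percent of chromosome 5 interactions in the interval (dotted line, its 29.6% of the length) and the difference between interval and rest, in percentage points, in the trans share, the share within 1 kb and the share of cis beyond 1 Mb. The mOPC NPM points of the trans share lie at 28.8 and 39.6, and those of all mESC groups between −1.99 and 0.398.

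In mESC, no trans contact on the interval was listed under NPM, and in the rest trans contacts were 0.743% and 0.428%. Trans contacts captured but not listed are not counted here, so this is no measure of their loss. Contacts within 1 kb made up 86.8% and 90.2% in the interval against 86.4% and 90.0% in the rest. The differences from 1FA in the measures of interval minus rest were 1.25 points for trans, −0.632 for within 1 kb and 3.42 for beyond 1 Mb (exact two-sided permutation p = 0.1, 0.2 and 0.1). Without own-gene contacts they were −61.0, 50.6 and 4.99 points. These rest on few contacts, since own-gene contacts were 99.26% of 5850 and 99.63% of 8021 in the interval in mESC NPM. With each pair counted once, the trans measure in mESC was −2.49 under 1FA and −1.15 under NPM. It was 2.39 and 1.19 within 1 kb, and −5.43 and 0 beyond 1 Mb. Over both lines together NPM moved the trans difference by 15.1 points and the difference within 1 kb by −16.2 points (exact p = 0.01 each, the smallest the design allows, 0.1 after Benjamini-Hochberg adjustment over 20 tests). Beyond 1 Mb the value was −8.49 (exact p = 0.12). With each pair counted once, the values over both lines kept their direction. They were larger in size for trans and within 1 kb and smaller beyond 1 Mb. Leaving out own-gene contacts, which were 99.4% of mESC NPM and 61.7% of mOPC NPM contacts in the interval, the values over both lines turned to −21.3, 14.9 and 26.2 points. The share of chromosome 5 contacts in the interval was 4.03 points higher under NPM in mESC (exact p = 0.1) and 2.04 points higher in mOPC (exact p = 0.2), or 3.04 points over both lines (exact p = 0.02, 0.133 adjusted). The mESC value turned to −3.49 points without own-gene contacts. The mOPC value was 30.9 points without own-gene contacts, 7.91 with each pair counted once, 1.27 without the 5 most contacted bins, 3.57 or 0.504 without mOPC NPM replicate 1 or 2, and 0.0590 at a deposited threshold of 0.001, and it turned to −2.61 without Malat1. No test of the 20 passed 0.05 after adjustment, since the smallest adjusted exact p was 0.1.

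Bins of the interval were called in both directions under NPM. Of 1063 tested in mOPC by limma, 314 (29.5%) were higher and 359 (33.8%) lower under NPM, with a median log2 difference of −0.05. Over all bins of the genome tested, 15.8% were higher and 47.1% lower, with a median of −0.56. In mESC, of 698 tested 105 (15.0%) were higher and 361 (51.7%) lower, with a median of −1.01, against 10.4% and 62.1% and a median of −2.50 over all bins. In mESC NPM 415 bins of the interval were listed at all and in mESC 1FA 993. In mOPC NPM 988 were listed and in mOPC 1FA 1210. Tested bins not listed under NPM passed the filter on low counts only through 1FA, where they are high. They had to be lower, so the counts of lower bins give no support for a direction.

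The RNAs made in the interval were compared by the same contrasts, over all their contacts in the genome. In mOPC 74 of 243 were higher under NPM and 87 lower, where 28.1% and 27.3% of all transcripts were. Scaled by total interactions in place of TMM, which moved the median of all transcripts from 0.14 to 0.95, the numbers were 142 and 38. Without mOPC NPM replicate 1 or 2, 29 or 32 were higher, with the lone NPM library assumed to vary like those of 1FA. In mESC 29 of 173 were higher and 56 lower (17.5% and 33.2% of all), or 83 and 18 scaled by total, with the median of all moving from −0.18 to 0.51. Transcripts listed in 1 of the 2 groups alone passed the filter on low counts only through that group. They had to differ, so these counts give no support for a direction. The shares of all transcripts called when scaled by total are not reported here. The named genes below kept their direction under either scaling, and the sizes given are by TMM unless named otherwise. By log2 difference ± SE, the largest rises in mOPC among those with a mean of 100 interactions per library and groups apart were Plb1, a phospholipase, with 2.06 ± 0.25 (37.5, 22.3 and 22.0 CPM under 1FA, 214 and 181 under NPM), Atraid, a receptor-like membrane protein gene, with 1.95 ± 0.18 (22.2, 21.3 and 29.02, then 192 and 143), and Gpn1, a GTPase for RNA polymerase import, with 0.97 ± 0.20. The largest falls were Gm43313 with −2.66 ± 0.21 (124, 118 and 85.5, then 30.6 and 29.4), Ppp1cb with −2.44 ± 0.23 (2618, 2652 and 1762, then 742 and 768) and Stx18, a SNARE protein gene, with −2.36 ± 0.13 (1390, 1381 and 1344, then 452 and 501). Their limma adjusted p ran from 6.1e-06 to 0.0050, and Gpn1 reached 0.0932 with 1 library left out. Scaled by total, the log2 differences were 1.80 for Gpn1, −1.61 for Ppp1cb and −1.53 for Stx18, each over 1.5 times from the TMM value.

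In mESC, Bod1l, a gene of replication fork protection, rose under NPM by 1.99 ± 0.15 (69.7, 61.4 and 67.8 CPM, then 456 and 401) and Akap9, a centrosomal scaffold, by 1.25 ± 0.17 (92.6, 77.4 and 92.8, then 382 and 297). No other gene met the rule for a rise. Among the largest falls were those of Tbc1d14, a regulator of autophagy, which fell by 1.77 ± 0.14 (237, 243 and 219, then 110 and 110), and of Sorcs2, which fell by 1.52 ± 0.17 (419, 365 and 319, then 235 and 182). Scaled by total, as the CPM are, Tbc1d14 fell by 1.07 and Sorcs2 fell by 0.82, and Akap9 rose by 1.94. The counts of the gene lists turned with the scaling, so that no direction is given for them. Of 14 neural genes tested in mESC, limma called none higher and 8 lower by TMM, and 3 and 5 scaled by total, with median log2 differences of −0.66 and 0.04 (−0.18 and 0.51 over all transcripts). Of 16 in mOPC, 4 were higher and 8 lower by TMM, and 9 and 2 by total, with medians of −0.52 and 0.31 (0.14 and 0.95 over all). Of the list of growth factors, morphogens and their receptors 5 were tested in mOPC. Hgf, Fgfr3, the homeobox gene Msx1 and Hs3st1, a heparan sulfate enzyme, were higher, with means of 0 to 6.33 interactions per library under 1FA and 11.5 to 49.5 under NPM, and Wdr1, which is no growth factor, was lower. The first 4 passed the filter on low counts only through NPM, where they are high, so that they had to differ and their number is no support for a direction. The limma adjusted p reached 0.219 for Msx1 and 0.0929 for Wdr1 with 1 library left out. Of 24 cell cycle, chromatin and RNA genes in mESC, 3 were higher and 10 lower by TMM, and 10 and 1 by total. Of 25 in mOPC, 2 were higher and 11 lower by TMM, and 15 and 7 by total. By TMM 17.5% of all transcripts were higher and 33.2% lower in mESC, and 28.1% and 27.3% in mOPC.

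After actinomycin D the interval held a slightly smaller share of the contacts. In mESC ActD the interval took 17.4% and 17.2% of chromosome 5 contacts, 2.09 points less than in mESC 1FA, and its libraries did not overlap those of mESC 1FA (exact two-sided permutation p = 0.1, the smallest possible). Contacts over 1 Mb were 0.142% and 0.0801% of cis contacts in the interval and 1.94% and 1.74% in the rest. The differences between interval and rest moved by 2.20 points for trans, 3.08 within 1 kb and 1.69 beyond 1 Mb (exact p = 0.1 each). Without own-gene contacts they moved by 6.25, 0.0884 and 0.729 points, and with each pair counted once by 1.51, 6.76 and 3.22. Without Malat1 the trans value was 1.33, and the share of the interval fell by 3.75 points without own-gene contacts. By limma 55 of 697 bins were higher and 379 lower (7.92% and 56.8% over the genome), and 29 of 169 transcripts were higher and 76 lower (16.8% and 44.5%). The 55 higher bins were 32 to 36 without any one mESC 1FA library and 85 or 83 without ActD replicate 1 or 2, where the lone ActD library is assumed to vary like those of mESC 1FA. The median of all bins was −1.54, or −1.22 scaled by total, so that these are changes relative to a shift of all. In mESC ActD 372 bins of the interval were listed at all and in mESC 1FA 993. Tested bins and transcripts not listed in ActD passed the filter on low counts only through mESC 1FA. They had to be lower, so the counts of lower bins and transcripts give no support for a direction.

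Among the RNAs, Cacna2d1 reached 96.7, 88.1 and 131 CPM in mESC 1FA and was listed at 0 in mESC ActD. Dpp6 fell by 3.25 ± 0.20 on the log2 scale (87.7, 98.3 and 83.3, then 9.55 and 11.9) and Adam22, an adhesion protein gene, fell by 2.82 ± 0.46 (78.3, 77.4 and 89.7, then 7.16 and 23.8). In ActD, where libraries listed fewer interactions, Dpp6 and Adam22 rested on 3 to 6 interactions per library. All 3 genes passed the filter on low counts only through mESC 1FA, where they are high, so that they had to differ and no p is given for them. Maea, a subunit of the CTLH ubiquitin ligase, rose by 0.70 ± 0.12 (125, 122 and 120, then 236 and 226) and Agap3, a GTPase-activating protein gene, by 0.59 ± 0.15 (158, 134 and 126, then 227 and 262). The adjusted p of Agap3, 0.0126, became 0.0551 with 1 library left out. Of the neural genes 11 of 14 tested were lower and none higher, but 8 of the 11 had a mean under 10 interactions in ActD and passed the filter only through mESC 1FA. Scaled by total, 10 were lower and 1 higher. Of the cell cycle, chromatin and RNA genes 12 of 23 were lower, 5 of them in that way, and 2 higher. Scaled by total, 9 of the latter list were lower and 4 higher. By TMM 44.5% of all transcripts were lower and 16.8% higher.

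Few bins differed with 2% formaldehyde. The paper digested chromatin with DNase I for longer at 2% than at 1%, so that fixation and digestion time cannot be told apart. By limma 2 of 694 bins of the interval were higher in mESC 2FA and 3 lower, where 0.213% and 0.784% of all bins were. With the replicate number as a block, as the numbers were taken to pair these libraries, 9 were higher and 20 lower, against 1.25% and 2.54% of all bins. Without mESC 2FA replicate 1 the numbers were 5 and 17, and without mESC 1FA replicate 1 both were 0. No transcript of the 169 tested was called, while 21 had an unadjusted p under 0.05, and with the block 5 were higher and 1 lower, against 1.78% and 4.01% of all. Over the genome 0.0201% of transcripts were higher and 0.01% lower without the block. The share of chromosome 5 contacts in the interval differed by 0.502 points, with libraries that overlap (exact permutation p = 0.5). The trans difference between interval and rest moved by 0.916 points and the difference beyond 1 Mb by −0.257 points, without overlap (exact p = 0.1 each), and that within 1 kb by 0.405 points with overlap (exact p = 0.2). By replicate number, the trans and within 1 kb values were higher in all 3 pairs and that beyond 1 Mb was lower in all 3 (exact paired p = 0.25 each, the smallest possible). Without own-gene contacts the value beyond 1 Mb was −0.840 points and that within 1 kb was 0.0531 points. Beyond 1 Mb it was −0.656 with each pair of an RNA and a bin counted once. The trans value was 0.469 without Malat1 and 0.467 at a deposited threshold of 0.001. The share of the interval differed by 0.0151 to 0.799 points with 1 library left out.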

How the data were processed

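The authors extracted RNA and DNA tags (TagDust2), removed ribosomal RNA and PCR duplicates, aligned tags to mm10 with BWA 0.7.15-r1140, and kept uniquely mapped tags. RNA tags were assigned to GENCODE M14 genes by strand. A one-sided binomial p-value was computed by the authors per transcript and 25-kb bin, on pooled replicates of a condition. The deposited files list every interaction of pairs with a Benjamini-Hochberg adjusted p-value under 0.05, with those p-values, so replicates share 1 list of pairs, their spread is understated, and a file's total is not its sequencing depth. Whether blacklisted regions had been removed from the files was not tested.

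Each of the 32 samples is the RNA or DNA entry of 1 of 15 libraries, 1 of them sequenced a second time. Lines were merged to interactions and counted per bin and transcript. Symbols came from GENCODE M21 by Ensembl identifier (99.9% matched on chromosome 5). Library shares were set against each other in exact permutation tests, two-sided on the size of the difference. Bins and transcripts with at least 10 interactions in as many libraries as the smaller group has and 15 in all were tested on log2 CPM (TMM factors, prior count 0.5) with limma 3.58.1 in R 4.3.3, adjusted over all features of the genome, and called at 0.05. The counts were made here from the lists of significant pairs, and no count model was run on them. The fits were also run on simulated data, and the outcome is not reported here. Members, gene lists and the interval were chosen with earlier results of these data known. The named genes were members of the lists, the 10 leading RNAs per line, the 5 leading trans RNAs per group, the leading bins, the 3 largest called changes each way and the genes at the end of the interval. The 10 leading trans RNAs of mOPC NPM were also taken, for the shares of trans contacts. One gene that the rule names is not reported here. Replicate numbers were taken to pair mESC 2FA with mESC 1FA, since same-numbered libraries deviated together in all 3 pairs (r of 0.138, 0.175 and 0.257 over bins, 0.336, 0.169 and 0.310 over transcripts). The labels do not say that same-numbered libraries share cells, and the correlations of libraries of different number were not computed.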

Additional observations from a re-analysis of the deposited data

Results flagged for a closer look

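NPM moved the difference between the interval and the rest in the share of cis contacts beyond 1 Mb in opposite directions in the 2 lines, by 3.42 percentage points in mESC and by −20.4 points in mOPC, with all libraries of each line on the side of their group. The shares beyond 1 Mb were small under NPM, and both differences moved towards 0, from −3.42 to −0.00380 points in mESC and from 24.5 to 4.11 in mOPC. The opposite directions thus follow the signs under 1FA, which differ between the lines whose contrast chose the interval. Without own-gene contacts the values were 4.99 and 47.5 points, so that the opposite directions were not seen there. The difference between the lines was not tested. Contacts of RNAs made in the interval with other chromosomes stand outside the comparisons by DNA position. They numbered 2320 in mOPC 1FA and 2519 in mOPC NPM, pooled, against 93 in mESC 1FA and 434 in mESC NPM, where 413 fell on chromosome 17. Lhfpl3 supplied 1968 of the 2320 and 1071 of the 2519.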

How the results depend on the processing

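The main limit is the list of significant pairs, which was made on pooled replicates and depends on each group's depth. Leaving out own-gene contacts turned several values of NPM against 1FA, in mESC on the few contacts that remained. The share of chromosome 5 contacts in the interval then differed by −3.49 points in mESC and 13.7 over both lines (exact p = 0.1), the trans difference by −61.0 in mESC and −21.3 over both, the difference within 1 kb by 50.6 and 14.9, and that beyond 1 Mb by 47.5 in mOPC and 26.2 over both. Without Malat1 the share differed by −2.61 in mOPC and 0.682 over both lines, and with the stricter deposited threshold of 0.001 by 2.11. With the replicate number as a block, the values over both lines were 3.08 (exact p = 0.25), 15.2 for trans and −16.2 within 1 kb (exact p = 0.125 each, the smallest possible). The share in mOPC 1FA minus mESC 1FA, 43.04, was 35.6 with each pair counted once, 48.5 without own-gene contacts, 42.4 without Malat1, 43.8 at the stricter threshold, 39.9 for the first 40 Mb and 42.1 without the 5 most contacted bins.

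Without the filter on low counts, higher and lower bins numbered 52 and 76 in 2FA, lower bins 649 in ActD and 614 in mESC NPM, higher and lower transcripts 15 and 10 in 2FA and 49 and 91 in mESC NPM, lower transcripts 125 in ActD, and higher transcripts 114 in mOPC NPM. With the replicate block, 2FA had 9 and 20 bins and 5 and 1 transcripts, and ActD 30 higher bins. For comparisons other than 2FA the correlations of same-numbered libraries were −0.134 to 0.158. Scaled by total, ActD had 97 higher bins, mESC NPM 83 and 18 transcripts and mOPC NPM 142 and 38. Leaving out 1 library gave 2.27 to 3.80 for the share over both lines, 0 to 5 higher and 0 to 17 lower bins in 2FA, 32 to 85 higher bins in ActD and 29 to 76 higher transcripts in mOPC NPM. Where this left 1 library in a group, its spread was taken from the other group. All other alternatives left direction and side of the threshold as they were, or counts within 1.5 times. The counts of this paragraph describe the dependence on settings only. Apart from the 2FA block above, the shares over all features under the same settings are not reported here. Nothing is therefore read from these counts about the interval.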
